A study of Mus musculus with 2 samples.

Results

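The members described here are cell barcodes from mouse colon tumour tissue that carry fibrillar collagen transcripts, 91 of the 13282 barcodes kept from 2 single-cell RNA libraries. Of these, 84 came from the library labelled KO and 7 from the library labelled WT. The label given to them was fibroblasts of colon tumours. Each library stands for 1 genotype. The library labelled KO came from mice with floxed Ecm1 alleles and a Cre recombinase under the Villin promoter, which is active in intestinal epithelium, so the deletion was directed at epithelial cells and not at the cells described here. The library labelled WT came from mice with the same floxed alleles and no Cre. The sources used here do not state the tumour model, the age of the mice or how many animals stand behind each library, and the extraction protocol in the labels describes lysed tissue rather than single cells.

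Fibroblasts build the connective tissue under the intestinal epithelium: they secrete collagens and the proteoglycans that order collagen fibrils, the enzymes that crosslink and cut them, and the Wnt and BMP family signals that position stem cells and differentiated cells along the crypt. In colon tumours, cells of this lineage are known for remodelling matrix and for secreting chemokines and cytokines that draw in leukocytes. Pericytes, which wrap small vessels, and smooth muscle cells also make collagen and share several of these genes.

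Membership was set by measured values, which are therefore given as description only. A kept barcode had at least 200 genes and under 20% mitochondrial transcripts. Members had summed Col1a1, Col1a2 and Col3a1 at 10 or more per 10000 unique molecular identifiers (UMIs, each a counted transcript molecule), at least 1 UMI in 2 or more of 6 further genes (Dcn, Lum, Pdgfra, Dpt, Col6a1 and Mfap5), no UMI of the endothelial gene Cdh5 or the leukocyte gene Ptprc, and summed Epcam, Krt8 and Krt18 under 10 per 10000. Collagen reached the minimum in 143 kept barcodes labelled KO and 15 labelled WT. The further markers removed 35 and 5 of these, the epithelial limit 30 and 2, Ptprc 9 and 2, and Cdh5 6 and 0, with some barcodes failing more than 1 criterion. The lowest collagen levels inside were 12.4 and 13.4 per 10000 in the library labelled KO and 12.0 in the library labelled WT. No barcode that met every other criterion lay below the collagen minimum, while 16 barcodes labelled KO and 2 labelled WT lay just outside with 1 further marker in place of 2. Their collagen ran between 10.5 and 108 per 10000 in the library labelled KO, and between 15.9 and 199 in the library labelled WT.

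The members made up 1.91% of kept barcodes in the library labelled KO (84 of 4387; exact binomial 95% interval 1.53 to 2.37) and 0.0787% in the library labelled WT (7 of 8895; 0.0316 to 0.162), a ratio of 24.3 (11.3 to 62.4). How the tissue was dissociated is not stated, and the part of cell recovery in this ratio was not tested. All intervals cover counting error only, and with 1 library per genotype no test between genotypes was possible. The median depth of kept barcodes was 10779 UMIs for KO and 2986 for WT. The members labelled KO held 1015828 UMIs in total (median 11333.5 per barcode, 1137 to 38510) and those labelled WT held 62657 (median 4524, 2499 to 33878), and the deepest barcode alone supplied 54.1% of the WT total. Median mitochondrial content was 0.985% in the members labelled KO and 2.09% in those labelled WT. The X-inactivation transcript Xist was present in 81 of 84 members labelled KO and 0 of 7 labelled WT, and the Y-linked Ddx3y in 0 and 3, so genotype, sex of the animals and library cannot be told apart. The libraries shared 17 barcode sequences, none of them among the members, and none of the members was among the barcodes with the highest doublet scores.

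The label holds only in part. Of the 5 genes given as its markers, Col3a1 was present in all 84 members labelled KO, Col1a1 in 82 and Dcn, a small proteoglycan, in 78. Pdgfra, the PDGF receptor typical of fibroblasts, was present in only 27 of the 84 and Lum, another small proteoglycan, in 24. In 50 of the 84 the further markers stopped at the required 2, and in 46 of these the pair was Dcn and Col6a1. Clustering of the 84 on their own gave 6 subgroups, both at Leiden resolution 1 and at 0.5. Subgroups were compared with marker lists of fibroblast types and of other stromal, blood vessel, epithelial and immune cells. The subgroups were formed from these same cells, so differences between them are descriptive.

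Subgroup 1, with 27 barcodes, was pericyte-like. All 10 pericyte markers were detected, and its leading genes included Gja4, a gap junction protein of vessel walls, and Notch3, the Notch receptor of mural cells. A marker counted as detected with a UMI in at least 10% of a subgroup's barcodes. Rgs5, a regulator of G protein signalling that marks pericytes, was present in all 27 at 10969 CPM, the pooled UMIs of a gene scaled to a total of 1000000 (Poisson interval 10542 to 11410). Pdgfra had 0 UMIs in the 27. Subgroup 2, with 14 barcodes, was left unnamed because none of its 10 leading genes was a pericyte marker, although the pericyte list stood highest there too: all 10 markers were detected and Rgs5 was present in all 14 at 5687 CPM. Its leading genes included Hilpda, a lipid droplet protein, Odc1, the first enzyme of polyamine synthesis, and the cytokine gene Il6. Of the 10, 1 was on the endothelial list: Flt1, present in 13 of the 14 barcodes at 345 CPM. Hilpda and Odc1 were present in all 14 barcodes. Subgroups 1 and 2 together held 41 barcodes, 48.8% of the members labelled KO. Rgs5 was present in all 41, Pdgfra in 0 and Lum in 1, and 39 of the 41 met the marker criterion with exactly 2 genes.

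Subgroup 3, with 13 barcodes, was trophocyte-type fibroblast-like, after the Pdgfra-low fibroblasts near the crypt base. All 12 of that list's markers were detected. Clec3b, Cd55, Sfrp2, Col14a1, Mfap4 and Sfrp1 led the subgroup, and only 1 of its 10 leading genes, Sfrp1, was on that list. The list of adventitial Pi16 fibroblasts came next there, with 10 of 12 markers detected and also 1 leading gene, Clec3b. Subgroup 5, with 11 barcodes, was subepithelial Pdgfra-high fibroblast-like: all 11 markers found in the files were detected, and Pdgfra was present in every barcode at 1200 CPM. Subgroup 6, with 6 barcodes, was smooth muscle-like, with 10 of 10 markers detected and 5 of them among its 10 leading genes, including calponin (Cnn1) and smooth muscle myosin (Myh11). Subgroup 4, with 13 barcodes, took no name from any list. The neutrophil list stood highest there with 4 of 10 markers detected, and the subepithelial Pdgfra-high list came next with 7 of 11. It was led by genes that include Cxcl3, Mmp13, Saa3, Csf3 and Ptgs2. These encode a chemokine, a collagenase, an acute phase protein, a granulocyte growth factor and the inducible prostaglandin synthase. Subgroups 3, 4 and 5 together held 37 barcodes, or 44.0% of the members labelled KO, with Dcn in 34, Pdgfra in 27 and Lum in 20. Rgs5 was present in 10 of the 37, and 9 of these were in subgroup 4. The 84 barcodes are therefore called collagen-positive below, and by subgroup where it matters.

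**Figure D1:**
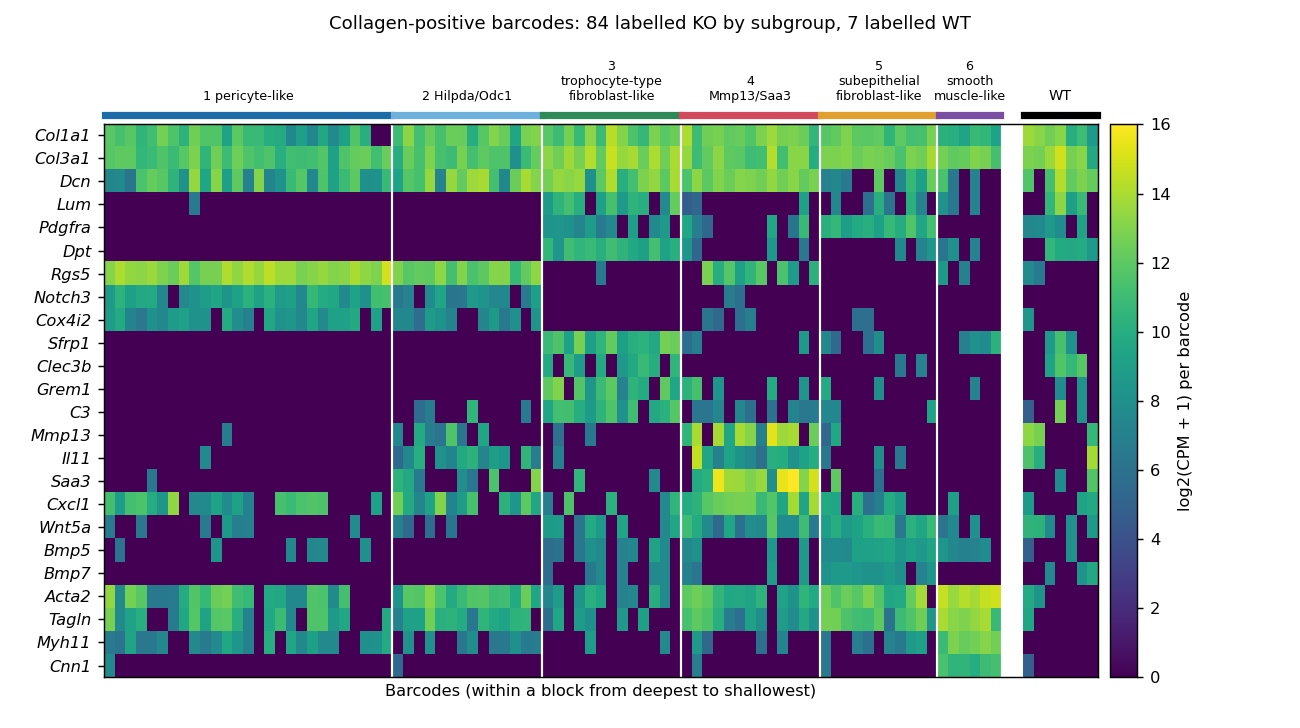
Expression of 24 genes in each collagen-positive barcode, as log2(CPM + 1) per barcode (colour), with genes as rows and barcodes as columns. The 84 barcodes labelled KO stand on the left in 6 subgroups (27, 14, 13, 13, 11 and 6 barcodes) and the 7 labelled WT on the right; Rgs5 fills subgroups 1 and 2, Pdgfra fills subgroup 5, and the WT block divides into 4 barcodes with Clec3b and 3 with Mmp13 and Il11.

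The 7 barcodes labelled WT divided in a simpler way. Clec3b, a secreted lectin-domain protein, and Cxcl12, the chemokine that binds CXCR4, both had UMIs in the same 4 barcodes. The other 3, among them the 2 deepest, carried Mmp13, Mmp10 and Il11, and none of the 4 with Clec3b did. Clec3b and Mmp13 shared no barcode in the library labelled KO either (0 of 84). Notch3 and Myh11 had 0 UMIs in the members labelled WT, and with 7 barcodes the exact binomial interval of a count of 0 reaches 41.0%. Rgs5 was present in 2 of the 7 with 8 UMIs, 7 of them in the deepest barcode. Of the 10 pericyte markers, 2 were at 0 in the members labelled WT, and Cox4i2, on that list, had 11 UMIs in the deepest barcode. The pericyte list summed to 782 CPM there and to 5558 CPM in the members labelled KO. Smooth muscle markers, 4 of 10 at 0 in the members labelled WT, summed to 383 and 1574 CPM. Members labelled WT were not clustered, so none was called pericyte-like or smooth muscle-like. Pooled levels of the members labelled KO and WT thus come from different mixtures of barcodes. Without subgroups 1, 2 and 6, 21 of the named genes had a ratio outside its counting interval over all members and 17 did not. The barcodes left in that alternative still included 9 of subgroup 4 with Rgs5.

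Markers of other cell types were measured in the members of both libraries. In the members labelled KO, of the endothelial markers 3 of 12 were at 0, Pecam1, Kdr and Cldn5, and the list summed to 436 CPM against 10257 CPM in the endothelial class of that library (80 barcodes). Flt1, of the same list, had 70 UMIs in subgroup 2 and 90 in the other members labelled KO. The epithelial list, with 1 of 12 at 0, summed to 179 CPM against 13477 CPM in the epithelial class (2461 barcodes). Mesothelial markers were at 0 for 6 of 8 and enteric glia markers for 7 of 8. MHC class II genes summed to 55.1 CPM against 10138 CPM in the immune class (1022 barcodes). Neutrophil markers, a list that includes Mmp9, summed to 273 CPM in the members labelled KO and to 2091 CPM in those labelled WT, and T cell markers to 24.6 and 160 CPM. Mmp9 alone stood at 180 and 1740 CPM. The part of these other cell types in the differences between the libraries was not tested.

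The collagen-positive barcodes were next set against the endothelial, epithelial and immune classes of the same library, which share its free RNA. Of 3479 genes with at least 50 UMIs in the members labelled KO, 281 stood 4-fold or more above the highest of those 3 classes (8.08%). The rule selected on collagen and Dcn, so their own positions are no finding. By the lower bound of this ratio, genes outside the rule were ranked, and Grem1, Ccl11 and Sfrp1 are given first. Grem1, a BMP antagonist of crypt base stroma, stood at 508 CPM (465 to 554) in the members and at 0, 1.13 and 0.889 CPM in the endothelial, epithelial and immune classes. Ccl11, the eotaxin that draws eosinophils, stood at 1188 CPM (1122 to 1257) in the members and at no more than 3.58 CPM in any of the 3 classes. Sfrp1, a Wnt antagonist, stood at 334 CPM (299 to 371) and at most 1.49 CPM elsewhere.

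These leading genes were unevenly spread over the 84 barcodes. Grem1 was present in 19, and the 5 richest held 70.3% of its UMIs: subgroup 3 stood at 2791 CPM, subgroup 4 at 573 CPM, and subgroups 1 and 2 at 0 UMIs. Sfrp1 was present in all 13 barcodes of subgroup 3 at 2518 CPM and in none of subgroups 1 and 2. Hhip, the hedgehog-binding inhibitor, belonged almost wholly to subgroup 6, at 3604 CPM there with 98.8% of its UMIs in 5 barcodes. Mfap4, a microfibril-associated protein, was highest in subgroup 3 at 1512 CPM. Mmp10, a stromelysin, had no UMI in subgroup 3 and stood at 7397 CPM in subgroup 4, where all 13 barcodes carried it.

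Other leading genes crossed the subgroups. Rarres2, the precursor of the chemoattractant chemerin, was present in 77 of 84 barcodes, with a median of 452 CPM and a highest value of 1821 CPM per barcode. Ctsk, a collagen-degrading cathepsin, was present in 53 and Twist1, a mesenchymal transcription factor, in 42. Igfbp5, which binds insulin-like growth factors, reached 12472 CPM in subgroup 5 and 8116 CPM in subgroup 3 but 172 CPM in subgroup 1. The remaining named genes, Chrdl2, Efemp1, Ogn, Rian, Ncam1, Has2, Col6a4, Bmp5, Rem1 and Meg3, stood between 59.1 and 322 CPM in the members, each at least 48.2 times the highest other class.

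**Figure D2:**
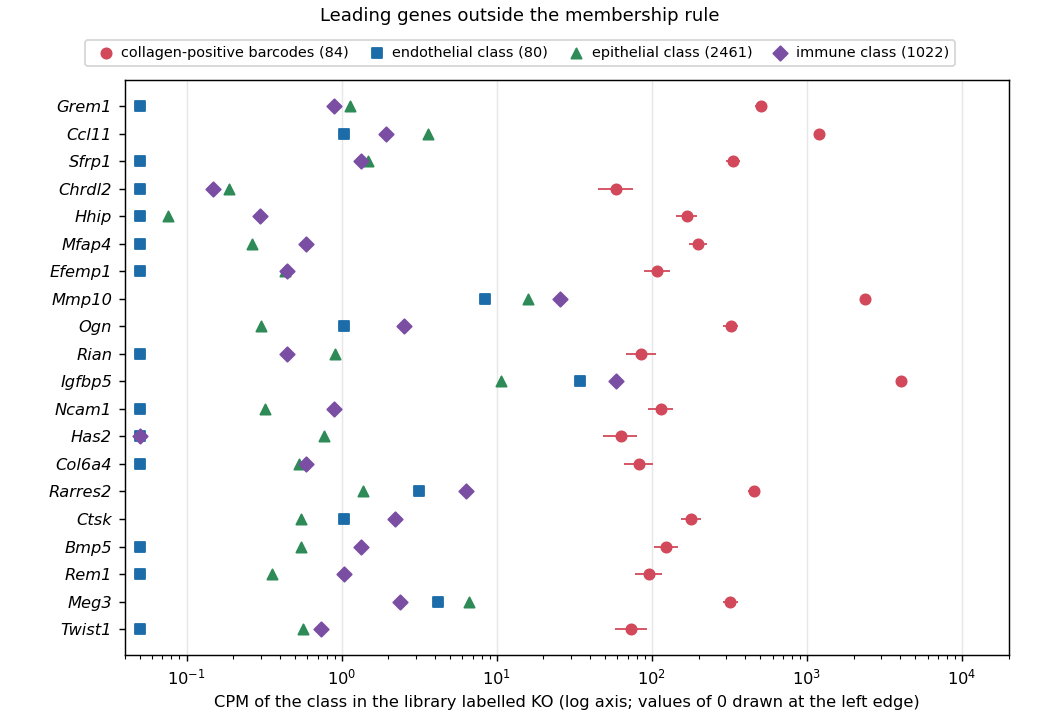
Pooled CPM of the 20 leading genes outside the membership rule (rows) in 4 classes of the library labelled KO, on a log axis, with Poisson 95% intervals on the collagen-positive barcodes. The members run from 59.1 CPM for Chrdl2 to 4045 CPM for Igfbp5, and the other classes lie to their left at every gene.

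Among matrix genes, all 6 fibrillar collagen genes with enough UMIs and 19 of 31 proteoglycan and matrix glycoprotein genes passed 4-fold over the other classes, beside the 8.08% of all genes. The rule's 3 collagens are among the 6, and its genes Dcn, Lum, Dpt and Mfap5 belong to the second list, so neither count is a finding about those genes. Col3a1 had a median of 4501 CPM per barcode in the library labelled KO, with a highest value of 25612 CPM. By subgroup Col3a1 stood at 11551 CPM in subgroup 3 and between 3306 and 6905 CPM in the others. Lum was concentrated in subgroup 3, at 1134 CPM with 11 of its 24 barcodes, while Dcn stood at 7907 CPM in subgroup 3, 6292 in subgroup 2 and 2488 in subgroup 1. Tnc, the tenascin of remodelling matrix, went the other way, at 1722 CPM in subgroup 4, 1039 CPM in subgroup 2 and 24.1 CPM in subgroup 3. Col4a1, a basement membrane collagen, was highest in subgroup 1 at 3796 CPM and lowest in subgroup 6 at 1137 CPM.

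Between the libraries, 1043 genes had at least 10 UMIs expected in each at equal CPM. Of these, 197 stood 2-fold or more higher in the members labelled KO (18.9%) and 73 stood 2-fold or more lower (7%). The filter used the pooled UMIs of the members, 1015828 labelled KO and 62657 labelled WT. Genes with 0 UMIs labelled WT could pass it, as Ccl7, Ednrb, Fabp5 and Myh11 did. A gene absent from the members labelled KO needed a far higher level in those labelled WT. The higher and lower shares are therefore not comparable with each other. The median log2 ratio over all 1043 was 0.14. Without the deepest barcode labelled WT, 440 genes passed this filter, 115 of them higher and 20 lower. Fibrillar collagens lay on the lower side: 0 of 6 were higher and 3 were lower, and the median log2 ratio over the 6 was -0.93. Col1a1, Col1a2 and Col3a1, 3 of the 6, are genes of the membership rule, so the list is a description only. Col1a1 stood at 4785 CPM (4652 to 4922) in the members labelled KO and at 9736 CPM (8978 to 10540) in those labelled WT, where the deepest barcode held 435 of 610 UMIs. The barcodes overlapped throughout, between 0 and 20124 CPM in the library labelled KO and between 400 and 12840 CPM in the library labelled WT. Without the deepest barcode labelled WT the log2 ratio of Col1a1 was -0.35 and the fibrillar median was -0.49.

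The proteoglycan and glycoprotein list showed 4 of 25 genes higher and 7 lower in the members labelled KO, beside 18.9% and 7% of all genes. Its median log2 ratio was -0.59. Lum stood at 189 CPM (163 to 218) in the members labelled KO and at 958 CPM (731 to 1233) in those labelled WT, a ratio of 0.197 (0.147 to 0.268). Lum is a gene of the membership rule, so this ratio is a description only. None of its 60 UMIs labelled WT came from the deepest barcode, and 44 came from a single one. Without subgroups 1, 2 and 6 the log2 ratio of Lum was -1.48, against -2.34 with all members. Fibronectin (Fn1) had a ratio of 0.352 (0.316 to 0.394) and a log2 ratio of -1.01 without the deepest barcode. Genes for collagen processing and crosslinking were divided, with 2 of 9 higher and 2 lower, beside the same shares of all genes. Lox, the lysyl oxidase that starts crosslinking, stood at 87.6 CPM in the members labelled KO and 479 CPM in those labelled WT. Of its 30 UMIs labelled WT, 26 lay in the deepest barcode.

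Contractile genes lay on the higher side. Of 10 testable genes, 9 were 2-fold or more higher in the members labelled KO and none lower, beside 18.9% and 7% of all genes. The median log2 ratio was 2.08, and 12 of 13 passed 4-fold over the other classes, beside 8.08% of all genes. Smooth muscle actin (Acta2) ran from 0 to 29685 CPM per barcode in the library labelled KO with a median of 1266 CPM, and from 0 to 886 CPM with a median of 0 in the library labelled WT. It was present in 73 of 84 barcodes labelled KO and in 2 of 7 labelled WT, and the ratio of pooled levels was 6.50 (4.62 to 9.46). Transgelin (Tagln), an actin-binding protein of smooth muscle, was present in 68 of 84 barcodes labelled KO and in 1 of 7 labelled WT, with a ratio of 5.47 (3.67 to 8.56). Myh11 had 356 UMIs in the members labelled KO and 0 in those labelled WT, which makes it at least 7.32-fold higher, a log2 bound of 2.87. Without subgroups 1, 2 and 6 that bound was 0.44.

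These genes followed subgroup 6, where Acta2 stood at 19651 CPM and Tagln at 11692 CPM, but were not limited to it. Acta2 was present in 22 of the 27 barcodes of subgroup 1, in all 14 of subgroup 2 and in 10 of the 11 of subgroup 5, at 2780, 2954 and 4475 CPM, and stood at 338 CPM in subgroup 3. Without the barcodes of subgroups 1, 2 and 6, the contractile median was 1.60 and the log2 ratio of Acta2 was 2.23. The pericyte markers were higher as well, with 6 of 6 testable genes higher, beside 18.9% of all genes, and a median log2 ratio of 1.79. Without subgroups 1, 2 and 6, only 1 of these markers, Rgs5, passed the filter. Rgs5 stood at 4012 CPM (3890 to 4138) in the members labelled KO and at 128 CPM (55.1 to 252) in those labelled WT, a ratio of 31.4 (15.9 to 72.8). Its log2 ratio was 4.97 with all members, 2.65 without subgroups 1, 2 and 6, and 2.29 with 3 of the 6 further markers required. Subgroup 4, which stays in when subgroups 1, 2 and 6 are left out, held Rgs5 in 9 of 13 barcodes at 1726 CPM. Ednrb, the endothelin receptor found on mural cells, had 547 UMIs in the members labelled KO and 0 in those labelled WT, at least 11.2-fold higher, and had 0 UMIs in subgroup 3. The log2 bound of Ednrb was 3.49 with all members and 2.13 without subgroups 1, 2 and 6.

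**Figure D3:**
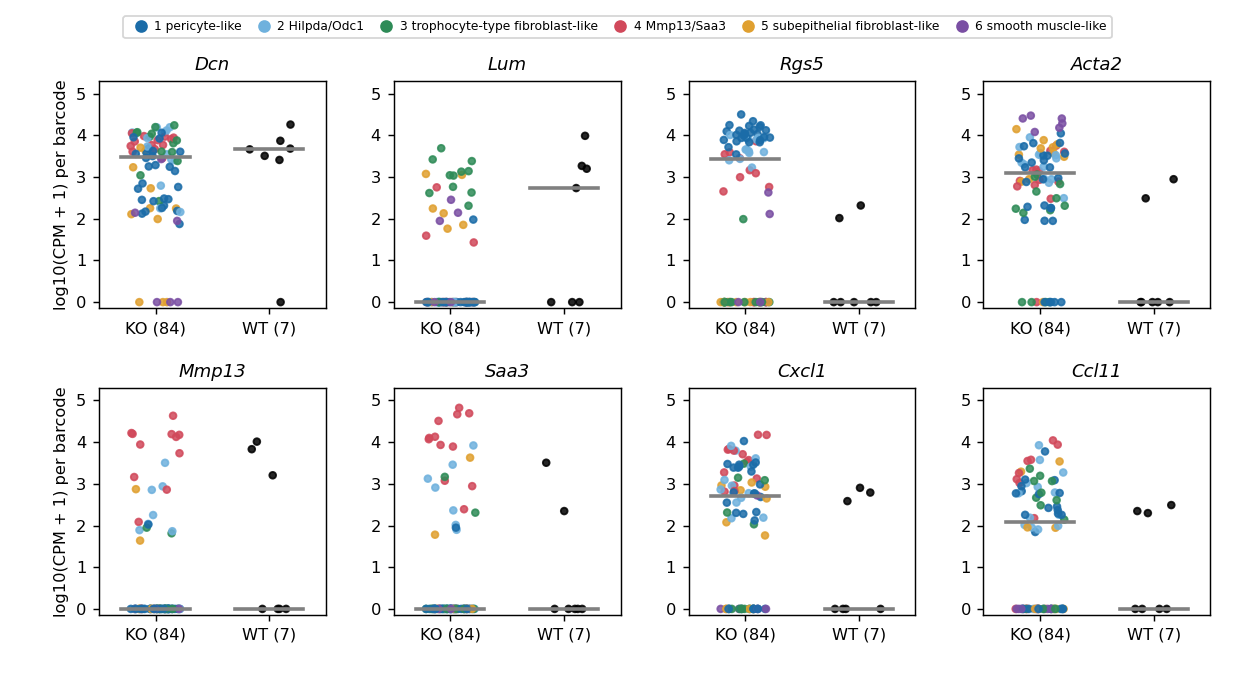
Values of 8 genes in each collagen-positive barcode as log10(CPM + 1), with the 84 barcodes labelled KO on the left of each panel, coloured by subgroup, and the 7 labelled WT on the right; grey lines are medians over barcodes. Acta2 is present in 73 of 84 KO barcodes and 2 of 7 WT barcodes and Rgs5 in 53 and 2, while Dcn reaches 17380 CPM in KO and 18126 CPM in WT barcodes and Mmp13 reaches 42877 and 10272 CPM.

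Chemokines and cytokines also stood higher. Of 10 testable genes, 7 were 2-fold or more higher in the members labelled KO and 1 was lower, beside 18.9% and 7% of all genes. The median log2 ratio was 2.63, or 2.37 without the deepest barcode labelled WT. It was 1.80 with 3 of the 6 further markers required and 1.89 with each barcode weighted equally. Among genes with enough UMIs, 8 of 20 passed 4-fold over the other classes, beside 8.08% of all genes. Cxcl1, a neutrophil chemoattractant that binds CXCR2, stood at 1955 CPM (1870 to 2043) in the members labelled KO and at 271 CPM (158 to 434) in those labelled WT, a ratio of 7.21 (4.49 to 12.4). It was present in 57 of 84 barcodes labelled KO and in 3 of 7 labelled WT. Other classes of the library labelled KO carried it as well, the endothelial at 556 CPM, the epithelial at 169 and the immune at 191. At an equal depth of 1000 UMIs per barcode, 46.4% of the members labelled KO (39 of 84) and 14.3% of those labelled WT (1 of 7) held a Cxcl1 UMI, against 11.7% of the KO epithelial class and 67.9% of the members labelled KO before thinning. For other chemokines the shares labelled KO and WT at this depth went both ways. They were 14.3% and 14.3% for Cxcl5, 15.5% and 14.3% for Ccl2, and 27.4% and 0% for Ccl11. Cxcl14 was at 32.1% and 14.3%, and Cxcl12 at 13.1% and 42.9%.

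By subgroup, Cxcl1 stood at 4385 CPM in subgroup 4, where all 13 barcodes carried it, at 1950 CPM in subgroup 2, 1551 CPM in subgroup 1 and 129 CPM in subgroup 6. Cxcl5, another CXCR2 ligand, had 0 UMIs in subgroup 1 and stood at 1814 CPM in subgroup 4. Ccl2 and Ccl7, which draw monocytes, stood at 1894 and 893 CPM in subgroup 4 and at 940 and 1123 CPM in subgroup 2. Ccl7 had 553 UMIs in the members labelled KO and 0 in those labelled WT, at least 11.4-fold higher. Ccl11 had a ratio of 24.8 (8.47 to 121) on only 3 UMIs in the library labelled WT. Cxcl12 lay in other subgroups: it was present in all 13 barcodes of subgroup 3 and all 11 of subgroup 5, at 949 and 651 CPM, but stood at 4.00 CPM in subgroup 4, and its ratio between libraries was 0.582 (0.385 to 0.918), with a log2 ratio of 0.076 without subgroups 1, 2 and 6. Il34, a ligand of the macrophage growth factor receptor, was present in 22 of 27 barcodes of subgroup 1 and had 0 UMIs in subgroup 3.

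**Figure D4:**
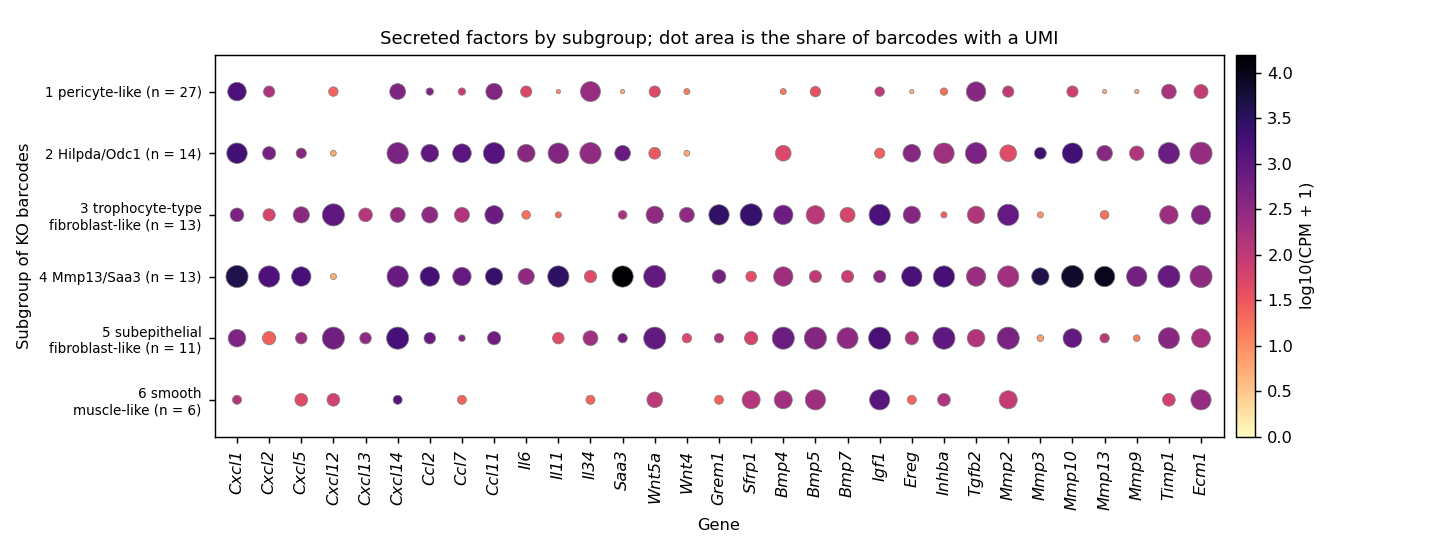
Secreted factors (columns) in the 6 subgroups of collagen-positive barcodes labelled KO (rows), with dot area giving the share of barcodes with a UMI and colour giving log10(CPM + 1) of the pooled UMIs. Cxcl1, Saa3, Mmp10 and Mmp13 are strongest in subgroup 4, Grem1, Sfrp1 and Cxcl12 in subgroup 3, and Bmp5, Bmp7 and Cxcl14 in subgroup 5.

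Pooled over its 13 barcodes, subgroup 4 held an acute phase protein, matrix proteases and cytokines, but these were not evenly shared by the barcodes. Saa3, serum amyloid A made locally in inflamed tissue, stood at 15863 CPM there in 12 of 13 barcodes, and 76.5% of all Saa3 UMIs labelled KO lay in 5 barcodes. Mmp13, which cuts fibrillar collagen, stood at 9687 CPM in 11 of 13 barcodes, against 379 CPM in subgroup 2 and 4.42 CPM in subgroup 1. Il11, a cytokine of the IL-6 family made by mesenchymal cells, stood at 2915 CPM in 12 of 13 barcodes, but 635 of its 728 UMIs lay in 1 barcode. Without that barcode Il11 was at 416 CPM in subgroup 4, beside 433 CPM in subgroup 2. Inhba, the activin A subunit, stood at 1878 CPM with 268 of 469 UMIs in 1 barcode, and at 899 CPM without it, beside 983 CPM in subgroup 5. Saa3 and Mmp13 were at 12448 and 7362 CPM in subgroup 4 without the barcode richest in each. Ptgs2 was present in 9 of the 13 at 901 CPM and Mmp3, the stromelysin that cuts proteoglycans, in 8 of the 13 at 4233 CPM. The subgroup kept collagen and Dcn (7493 CPM of Col1a1 and 6644 CPM of Dcn), with Pdgfra in 6 of 13 barcodes and Rgs5 in 9 of 13. The 9 with Rgs5 held at most 1 Pdgfra UMI each, and the other 4 held 3 to 30 and no Rgs5. Saa3 had between 30 and 1142 UMIs in each of the 9. In the other 4, from deepest to shallowest, Saa3 had 0, 23, 4 and 106 UMIs and Il11 had 0, 635, 17 and 7. Neutrophil markers, a list that includes Mmp9, summed to 665 CPM in subgroup 4 and to between 57.5 and 282 CPM in the other subgroups, against 18454 CPM in the immune class. Mmp9 alone stood at 605 CPM in subgroup 4. The part of neutrophil transcripts in these values was not tested.

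The start-site windows of 10 genes were read because their pooled levels were high in subgroup 4, and the set was chosen after their values were seen. For Il11 and Inhba, 1 barcode held most of the UMIs of that subgroup, as given above. Of the 10, 8 were in RefSeq's promoter table (GRCm38.p6, 250 bases before to 50 after each start site), and Cxcl5 and Ereg were not matched. A pair of motifs was searched on both strands, the AP-1 motif TGANTCA, which reads the same on both, and the kappa B motif (3 Gs, an A, any base, 3 Ts and 2 Cs). AP-1 was found for 4 of the 8 genes, Mmp3, Mmp10, Mmp13 and Il11, and for 8.97% of all 27025 genes in the table. Kappa B was found for 1 of the 8, Cxcl1, and for 0.466% of all genes. By window, AP-1 was in 4 of 9 and in 7.81% of all 32851. The AP-1 matches began 46, 63, 35 and 98 bases before the start site in Mmp3, Mmp10, Mmp13 and Il11, and the kappa B match 71 bases before that of Cxcl1. A match is a run of letters and not a measured binding site. Il11 has 2 windows in the table, 1 of them with the match. The 5 windows with a match follow, each 5′ to 3′ on the gene's strand with the motif in capitals; the coordinates are those of GRCm38.p6, not of the build of the count matrices.
Mmp3 promoter, chr9:7445572-7445871, plus strand: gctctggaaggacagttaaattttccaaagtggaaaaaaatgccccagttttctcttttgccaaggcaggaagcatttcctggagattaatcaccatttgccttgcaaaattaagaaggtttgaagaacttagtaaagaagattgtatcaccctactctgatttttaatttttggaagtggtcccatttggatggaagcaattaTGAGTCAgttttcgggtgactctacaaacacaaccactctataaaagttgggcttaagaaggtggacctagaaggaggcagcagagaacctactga
Mmp10 promoter, chr9:7502092-7502391, plus strand: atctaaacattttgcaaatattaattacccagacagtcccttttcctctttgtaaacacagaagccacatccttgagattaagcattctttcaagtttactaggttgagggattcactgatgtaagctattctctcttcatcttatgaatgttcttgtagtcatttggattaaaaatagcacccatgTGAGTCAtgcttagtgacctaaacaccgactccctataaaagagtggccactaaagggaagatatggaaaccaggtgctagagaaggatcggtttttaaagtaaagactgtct
Mmp13 promoter, chr9:7272264-7272563, plus strand: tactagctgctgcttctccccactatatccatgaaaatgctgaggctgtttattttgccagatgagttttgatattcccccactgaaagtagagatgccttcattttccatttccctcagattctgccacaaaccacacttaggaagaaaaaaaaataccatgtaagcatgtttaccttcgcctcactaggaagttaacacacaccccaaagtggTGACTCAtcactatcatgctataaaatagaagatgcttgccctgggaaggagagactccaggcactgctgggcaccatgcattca
Il11 promoter, chr7:4778092-4778391, minus strand: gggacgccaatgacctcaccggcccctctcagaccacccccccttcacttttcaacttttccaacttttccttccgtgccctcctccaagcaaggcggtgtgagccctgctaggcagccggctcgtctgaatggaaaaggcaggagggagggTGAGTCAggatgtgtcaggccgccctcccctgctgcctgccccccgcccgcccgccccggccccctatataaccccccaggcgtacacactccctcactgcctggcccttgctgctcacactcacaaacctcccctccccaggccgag
Cxcl1 promoter, chr5:90890995-90891294, plus strand: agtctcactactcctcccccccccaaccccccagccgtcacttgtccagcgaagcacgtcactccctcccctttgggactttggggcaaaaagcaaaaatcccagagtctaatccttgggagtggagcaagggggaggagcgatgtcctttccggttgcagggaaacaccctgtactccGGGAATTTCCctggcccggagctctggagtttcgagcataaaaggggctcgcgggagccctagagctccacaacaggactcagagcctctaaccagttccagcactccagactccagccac

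Pooled protease levels did not follow the chemokines between libraries. Of 14 testable proteases and inhibitors, 4 were higher in the members labelled KO and 4 were lower, beside 18.9% and 7% of all genes. The median log2 ratio of the list was -0.23. Mmp13 stood at 2478 CPM (2382 to 2577) in the members labelled KO and at 6671 CPM (6047 to 7342) in those labelled WT, a ratio of 0.371 (0.335 to 0.413). It was present in 23 of 84 barcodes labelled KO, with a highest value of 42877 CPM, and in 3 of 7 labelled WT. The deepest barcode held 348 of the 418 UMIs labelled WT, and without it the log2 ratio was 0.027. Without subgroups 1, 2 and 6 it was -0.56, against -1.43 with all members. Mmp10 had a ratio of 0.296 (0.268 to 0.326) and Mmp9, a gelatinase, a ratio of 0.104 (0.0813 to 0.133). Mmp3 went the opposite way, with 1497 UMIs in the members labelled KO and 3 in those labelled WT, a ratio of 30.8 (10.5 to 149). It was present in only 14 of 84 barcodes labelled KO and in 1 of 7 labelled WT, and 86.6% of its UMIs labelled KO lay in 5 barcodes.

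The 3 barcodes labelled WT with Mmp13, Mmp10 and Il11 thus shared part of the pooled profile of subgroup 4 and lacked another part. Il11 had 101, 10 and 35 UMIs and Inhba 119, 22 and 2 in the 3 barcodes, from deepest to shallowest. Saa3 had 0, 0 and 8 UMIs in the same 3, Cxcl1 had 13, 0 and 2, and Mmp3 had 0, 3 and 0. Pdgfra had 6, 2 and 0 UMIs in these 3, and Rgs5 had 7, 1 and 0. The 4 barcodes of subgroup 4 without Rgs5 held 0, 23, 4 and 106 Saa3 UMIs, from deepest to shallowest. Their Mmp3 UMIs were 0, 457, 0 and 0. The part of the mixture within subgroup 4 in this comparison was not tested. In the library labelled KO, Saa3 stood at 4182 CPM (4057 to 4309) over all members, against 144 CPM (65.7 to 273) in the library labelled WT, a ratio of 29.1 (15.3 to 63.7), or 4.86 as a log2 ratio. That log2 ratio was 2.72 with each barcode weighted equally, 3.92 with 3 of the 6 further markers required and 6.41 at a collagen minimum of 20 per 10000. Without subgroups 1, 2 and 6, but with the Rgs5 barcodes of subgroup 4 still included, the log2 ratio of Saa3 was 5.72 and that of Cxcl1 was 3.07. Haptoglobin (Hp), another acute phase protein, had a ratio of 12.8 (6.47 to 29.7), which as a log2 ratio is 3.68, or 1.66 with each barcode weighted equally, and stood at 4173 CPM in subgroup 4 and 2393 CPM in subgroup 2.

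Niche signals divided the subgroups. Wnt5a, a noncanonical Wnt ligand, was present in every barcode of subgroups 4 and 5, at 917 and 923 CPM, against 306 CPM in subgroup 3 and 48.6 CPM in subgroup 1. In subgroup 4 the 4 barcodes richest in Wnt5a held 194 of its 229 UMIs, and the other 9 stood at 224 CPM. The 4 held Pdgfra and no Rgs5 UMI, and the other 9 all held Rgs5. Bmp5 was present in all 11 barcodes of subgroup 5 at 416 CPM and Bmp7 in 10 of 11 at 314 CPM, both being BMP ligands that favour epithelial differentiation. Bmp4 stood at 742 CPM in subgroup 5 and 708 CPM in subgroup 3. Grem1 and Sfrp1, which block BMP and Wnt ligands, were highest in subgroup 3 as described above. Igf1 stood at 1689 CPM in subgroup 5, 1528 CPM in subgroup 3 and 24.6 CPM in subgroup 2. The R-spondin gene Rspo3, a Wnt amplifier, had only 14 UMIs in the members labelled KO and 1 in those labelled WT.

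Of the 24 Wnt, R-spondin and BMP niche genes, 10 of the 11 with enough UMIs passed 4-fold over the other classes, beside 8.08% of all genes. Only 5 could be compared between libraries, 1 of them higher and 1 lower, beside 18.9% and 7% of all genes. Wnt5a stood at 435 CPM (396 to 478) in the members labelled KO and at 1005 CPM (773 to 1286) in those labelled WT, a ratio of 0.433 (0.332 to 0.573), with 47 of the 63 UMIs labelled WT in the deepest barcode. Its log2 ratio without that barcode was -0.35, and without subgroups 1, 2 and 6 it was -0.37. Grem1 had 516 UMIs in the members labelled KO and 2 in those labelled WT, a ratio of 15.9 (4.38 to 132). Of 11 testable TGF-beta pathway genes, 2 were higher in the members labelled KO and 4 were lower, beside 18.9% and 7% of all genes. Their median log2 ratio was -0.54. The receptor gene Tgfbr2 was among the higher ones with a ratio of 2.70 (1.41 to 5.95), and Inhba among the lower ones with a ratio of 0.297 (0.248 to 0.358), or a log2 ratio of -0.96 without subgroups 1, 2 and 6.

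By the interval bound nearest to 1, the genes highest in the members labelled KO relative to WT were Rgs5, Saa3, Mmp3, Ccl7, Ednrb, Ccl11, Tm4sf1, Fabp5, Hp and Myh11. Fabp5, a fatty acid-binding protein, had 442 UMIs in the members labelled KO and 0 in those labelled WT, at least 9.09-fold higher, and its level in subgroup 1 was 946 CPM. Its log2 bound was 3.18 with all members and 1.19 without subgroups 1, 2 and 6. Tm4sf1, a membrane protein of vessels, had 761 UMIs in the members labelled KO and 1 in those labelled WT, a ratio of 46.9 (8.40 to 1856), and stood at 2291 CPM in the endothelial class. The genes lowest in KO relative to WT were Dmp1, Mmp9, Aebp1, Btc, Col5a3, Foxp1, Lum, Col15a1, Runx1 and Pdgfa, of which Lum belongs to the membership rule. Of these, Pdgfa, a PDGF ligand, had 95 of its 106 UMIs labelled WT in the deepest barcode, and its log2 ratio changed sign without it, to 0.19. Dmp1, a matrix phosphoprotein known from bone, had 56 UMIs in the members labelled KO and 158 in those labelled WT, spread over only 2 barcodes with 1 UMI in the deepest.

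Genes that respond to tissue dissociation and heat stress were higher as well. Of 18, 7 were 2-fold or more higher in the members labelled KO and 0 were lower, beside 18.9% and 7% of all genes. Their median log2 ratio was 0.89. Atf3, a stress-induced transcription factor, had a ratio of 7.96 (3.64 to 21.7). The list summed to 37195 CPM in subgroup 1 and to 13616 CPM in subgroup 4, and to 20924 CPM in the endothelial class of the same library. The part of this response in the other differences was not tested.

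Ecm1, the gene targeted in the epithelium, encodes a secreted matrix glycoprotein. It was transcribed in the collagen-positive barcodes of both libraries, at 240 CPM (211 to 272) in the library labelled KO, where 61 of 84 barcodes carried it, and at 399 CPM (258 to 589) in the library labelled WT, where 6 of 7 did, a ratio of 0.602 (0.398 to 0.949). It stood at 41.9 CPM in the epithelial class labelled KO and 33.3 CPM in that labelled WT, and at least 1 Ecm1 UMI was held by 22.4% and 21.3% of their barcodes. At an equal depth of 1000 UMIs per barcode the order was the opposite, with 2.97% of epithelial barcodes labelled KO (exact binomial interval 2.31 to 3.74) and 6.04% of those labelled WT (5.00 to 7.23) holding an Ecm1 UMI, so pooled level and equal-depth share disagree in direction. A UMI outside the deleted part would still be counted, and the sources used here do not name the floxed exons. Among the subgroups Ecm1 was highest in subgroup 3 at 426 CPM and lowest in subgroup 1 at 88.4 CPM. Cycling cells were rare: Mki67 and Top2a, genes of dividing cells, were found together in 2 of 84 barcodes labelled KO and 0 of 7 labelled WT.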

How the data were processed

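Single-cell RNA was counted in 1 library per genotype. Per the file headers, the authors made the deposited matrices with Cell Ranger 7.2.0, and the values are raw counts of UMIs for 55357 gene entries. The genome build was GRCm39, per the submitters' processing notes. The sources used here name no aligner settings, annotation release or cell-calling rule.

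Members were found by the rule in the report. Summed UMIs of each class and library were scaled to CPM, with exact Poisson 95% intervals for levels, conditional binomial intervals for ratios and Clopper-Pearson intervals for shares. These cover counting error only. Because each genotype had 1 library, no p-value was computed. Against 0 UMIs, folds used a floor of 3 counts in the group. The comparison classes did not overlap: the epithelial class passed the Epcam, Krt8 and Krt18 limit, the immune class had a Ptprc UMI, and the endothelial class had a Cdh5 UMI and at least 2 of 6 endothelial genes, each without the marks of the others. Members labelled KO were clustered by Leiden (seed 0) without the genes of the role lists that are not cell type markers. Scrublet's automatic threshold marked 0.0456% of kept barcodes labelled KO and 0% of those labelled WT, which is no working call, so no doublets were removed and top scores served as an alternative.

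The members and the 36 gene lists (433 of 435 genes found by symbol) were chosen with earlier results of these data known. Named genes were 20 leading genes over the other classes and 10 on each side between libraries, ranked by interval bound, plus role genes of the lists. The ratio and interval were tested on simulated data. Python 3.11.15, numpy 2.4.6, scipy 1.17.1, pandas 2.3.3, scanpy 1.11.5, igraph 0.11.9 and matplotlib 3.10.9 were used.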

Additional observations from a re-analysis of the deposited data

How the results depend on the processing

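The share of members held in every alternative but 1: with 3 of the 6 further markers required, 34 barcodes remained in the library labelled KO (0.775%) and 6 in the library labelled WT. Collagen minimums of 5 and 20 per 10000, a 10% mitochondrial limit and removal of barcodes with the highest doublet scores kept the shares within their intervals. With at least 5 expected UMIs, 356 of 2211 genes were higher and 186 lower. At 20 or more UMIs, 440 of 6456 genes passed 4-fold over the other classes. Without the deepest barcode labelled WT, an alternative chosen after seeing the data, 115 of 440 genes were higher and 20 lower. Fewer genes pass the filter without it. The log2 ratio of Mmp13 was then 0.027 and that of Pdgfa 0.19, both reversed in sign, and the collagen processing median was 0.49 in place of -0.10. That median was -0.87 with 3 of the 6 further markers and -0.81 with at least 5 expected UMIs. Weighting each barcode equally put the TGF-beta median at 0.047 in place of -0.54. Leaving out subgroups 1, 2 and 6, also chosen after seeing the data, put the protease median at 0.20 in place of -0.23. Without the 5 barcodes of each library richest in the gene itself, Col1a1 was at 2.21 and Fn1 at 0.29. That leaves 2 barcodes labelled WT, and genes with under 3 UMIs there gave no value. The medians of contractile genes, chemokines, pericyte markers and dissociation genes stayed above 0, and that of fibrillar collagens below 0, in every alternative run, though for pericyte markers only 1 gene, Rgs5, could be tested in 3 of them. No paired analysis was possible because each genotype has 1 library. Subgroup levels without the barcode richest in a gene, chosen after seeing the data, stand beside Il11, Inhba, Saa3 and Mmp13. With 7 barcodes labelled WT, and 54.1% of their UMIs in 1 barcode, depth limits every value between the libraries.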

Other observations

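Complement genes formed a further group in the collagen-positive barcodes labelled KO. Of 8 with enough UMIs, 6 passed 4-fold over the other classes, beside 8.08% of all genes. C3, the central complement component, stood at 1464 CPM in subgroup 3 in 12 of 13 barcodes and had 0 UMIs in subgroup 1. C4b stood at 933 CPM in subgroup 3. Serping1, the C1 inhibitor, was present in all 84 barcodes labelled KO and all 7 labelled WT. Between libraries, 0 of 6 testable complement genes were 2-fold or more higher in the members labelled KO and 2 were lower, beside 18.9% and 7% of all genes. Their median log2 ratio was 0.057.

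Ifi27l2a, an interferon-responsive gene, stood at 2671 CPM in subgroup 3 and had 0 UMIs in subgroups 2 and 4. Vegfa, the vascular growth factor, stood at 81.7 CPM (65.1 to 101) in the members labelled KO and at 1373 CPM (1098 to 1695) in those labelled WT, a ratio of 0.0595 (0.0435 to 0.0814). The deepest barcode labelled WT held 70 of its 86 UMIs there, and the log2 ratio without that barcode was -2.77. Epiregulin (Ereg), a ligand of the epidermal growth factor receptor, stood at 1702 CPM in subgroup 4, and 74.7% of its UMIs labelled KO lay in 5 barcodes.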
